A study of Oryza sativa with 36 samples.

Results

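Shoots of mock-treated rice seedlings were compared between 2 harvest times, 24 h and 2 h after the mock solution was applied, in 3 libraries against 3. These 6 libraries were chosen by their labels from the 36 of the series. The plants were wild type rice of the cultivar Nipponbare, 3 weeks old, grown in hydroponics with a 12 h photoperiod at 27 °C by day and 25 °C by night, in half-strength modified Hoagland solution with phosphate. The mock solution held acetone, the solvent of zaxinone, and no zaxinone. The other shoot groups used below had the same cultivar, age and medium: mock shoots at 6 h, and shoots at 2, 6 and 24 h after 5 µM zaxinone, an apocarotenoid that promotes rice growth. Mock roots at 2 and 24 h came from plants of the same kind. Each group had 3 libraries of bulk tissue. The study describes its replicates as independent biological ones, and the sources used here do not say how many plants each library pooled.

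The harvests were 22 h apart by their labels. If all plants received the solution at the same hour, the 24 h shoots were collected 2 h earlier in the day than the 2 h shoots, a day later. The hour of application was not given in the sources used here. In the study's sample sheet the libraries of each time carry an index of their own and consecutive numbers, so harvest time and library preparation cannot be told apart. In bulk tissue, fewer cells of a type and less RNA per cell cannot be told apart either.

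The loci described by name are those to which the study gives an enzyme or a role, since the files do not pair transcripts with gene names. They belong to sugar catabolism and to cytokinins. In glycolysis a hexose is phosphorylated, split by aldolase into trioses and oxidised to pyruvate. Mitochondria turn pyruvate into acetyl-CoA through the pyruvate dehydrogenase complex and oxidise it in the citrate cycle. Shoots run these steps beside photosynthesis, which makes the sugars by day. Cytokinins are adenine-derived hormones that promote cell division and delay leaf senescence. They are sensed through a phosphorelay that ends in response regulators, degraded by cytokinin oxidases and stored as glucosides.

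The 6 libraries held 25592025 to 26904536 counts at 2 h and 22822198 to 26383033 at 24 h, and the 100 most abundant transcripts took between 23.6% and 25.9% of them. Levels are given as CPM, counts per 1000000 counts of the library, and differences as log2 fold changes with their standard error (SE), positive where 24 h was higher. Log2 CPM correlated across transcripts with r from 0.987 to 0.989 within the 2 h libraries and from 0.988 to 0.991 within those of 24 h. Between the times r was 0.973 to 0.976, below every value within a time. With the mock roots r was 0.643 to 0.695, and with zaxinone shoots of the same time 0.988 to 0.992, so the libraries labelled as shoots resembled each other and not the roots. Defining marker genes of the tissue were not examined, because the files give no gene names. Transcripts are not independent replicates, and these values describe the libraries only. No library looked like a repeat of another, since the chi-square per degree of freedom between replicates was 5.42 or more.

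Of 23154 transcripts tested, 6440 differed between 24 h and 2 h in mock shoots by edgeR's quasi-likelihood test at a Benjamini-Hochberg adjusted p under 0.05, which is 27.8%. At 24 h, 3374 were higher (14.6%) and 3066 were lower (13.2%). Without replicate 1 of 24 h these counts were 2406 and 1999. Most differences were small. The median size among the calls was 0.47 on the log2 scale for those higher and 0.62 for those lower, and 83.3% of all calls were below a log2 fold change of 1 in size. Beyond this, 386 transcripts were higher and 691 were lower, and beyond a log2 fold change of 2 the counts were 36 and 92. The decreases were fewer than the increases and larger in the median. Between the libraries of the times there was no overlap in CPM for 43.5% of all transcripts tested, and for 6222 of the 6440 calls. CPM leaves out the scaling factors of the test, which were 1.01 to 1.04 at 2 h and 0.95 to 0.99 at 24 h. The smallest difference called was 0.18, and the median standard error over all transcripts tested was 0.13. The median log2 fold change of all transcripts tested was -0.02, so the scaling of the libraries left the bulk of the transcripts near 0.

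Calls were more frequent among transcripts with many counts, and more of those were higher. Transcripts were split into 4 groups of equal size by their mean CPM, which is not corrected for length. In the lowest group, below 2.94 CPM, 13.1% were called, 184 higher and 575 lower. In the highest group, above 34.7 CPM, 42.2% were called, 1725 higher and 717 lower. The median standard error fell from 0.30 in the lowest group to 0.08 in the highest, so a difference of a given size was called more readily among abundant transcripts. The median size of a call fell likewise, from 1.13 to 0.41 on the log2 scale. The transcripts called higher had a median level of 36.1 CPM over the 6 libraries, those called lower one of 12.1 CPM, and all tested ones 11.4 CPM. The lists of calls rest on these same libraries, so these levels are a description.

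Both directions were spread over all 12 chromosomes, as read from the locus identifiers. Transcripts called higher made up between 13.1% of those tested on chromosome 6 and 15.9% on chromosome 2. Those called lower made up between 11% on chromosome 11 and 15.0% on chromosome 10. Loci with adjacent numbers were called in the same direction more often than the 14.6% and 13.2% of all transcripts. Of the 3858 tested neighbours of a transcript called higher, 19.4% were higher and 11.4% lower. Of the 3333 tested neighbours of a transcript called lower, 17.5% were lower and 13.2% higher. Adjacent loci can overlap or be copies of each other, and reads shared between them were not examined.

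Few transcripts were detected at one time only, and these had low levels. Of the transcripts without any count in the 3 libraries of 2 h, 41 had counts in each library of 24 h, with mean levels up to 0.226 CPM. In the other direction 127 transcripts had counts in each 2 h library and none at 24 h, with means up to 1.47 CPM. The former lay below 0.241 CPM, the lowest mean over the 6 libraries among the transcripts tested, so none of them had passed the filter. Of the latter, 1 passed the test as lower. A count of 0 over a whole group allows up to 0.0379 CPM at 2 h and 0.0416 CPM at 24 h, taking 3 counts as the upper limit, and this covers counting error only. At this depth the times thus differed little in which transcripts were detected.

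Among the sugar metabolism loci, an ATP-dependent phosphofructokinase, an aldolase and a pyruvate dehydrogenase E1 locus were higher at 24 h, and most others did not pass the test. The study had assigned 24 loci to the breakdown and synthesis of sugars, to pyruvate and to the citrate cycle, after comparing zaxinone with mock in root libraries, so the choice did not use the shoots. Of these, 23 were tested, and 3 were higher at 24 h, 1 was lower and 19 did not pass the test. That is 17.4% against 27.8% of all transcripts tested. The median log2 fold change of the 23 was 0.06, with a range from -0.63 to 0.99, against -0.02 over all transcripts.

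At the entry to glycolysis, Os10g26570, assigned to the ATP-dependent phosphofructokinase step that commits hexose phosphate to glycolysis, was higher at 24 h. It had 13.8, 15.0 and 12.6 CPM in the 2 h libraries and 22.0, 19.9 and 20.1 CPM in those of 24 h. Every 24 h library lay above every 2 h library, and the 6 h mock libraries, at 13.3, 13.3 and 14.6 CPM, lay with those of 2 h. Its log2 fold change was 0.65 (SE 0.09, adjusted p = 0.000376 in edgeR), a 1.57-fold difference. The diphosphate-dependent phosphofructokinases, which plants use for the same step in either direction, did not pass the test. Os09g12650 had a log2 fold change of -0.63 (SE 0.28) at 0.834 to 2.75 CPM, and Os02g48360 one of -0.10 (SE 0.07) at 71.2 to 91.7 CPM.

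At the next step, 1 of 3 loci of fructose-bisphosphate aldolase, which splits the hexose into trioses, was higher at 24 h. Os08g02700 had 4.34, 5.69 and 3.14 CPM at 2 h and 7.67, 10.7 and 6.51 CPM at 24 h. Its log2 fold change was 0.99 (SE 0.23, adjusted p = 0.00888 in edgeR), the largest of the sugar metabolism loci, and the times did not overlap. At 6 h the mock libraries held 2.44, 2.83 and 3.39 CPM, so the 24 h libraries stood above those of both earlier times. The aldolase loci Os05g33380, at 186 to 223 CPM, and Os01g02880, at 47.2 to 57.1 CPM, had log2 fold changes of -0.10 and -0.06, with SE of 0.06 and 0.07, and did not pass the test.

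In lower glycolysis no locus passed the test. The glyceraldehyde-3-phosphate dehydrogenase locus Os04g40950, which oxidises the triose, had 917, 994 and 959 CPM at 2 h and 1039, 948 and 1004 CPM at 24 h. The times overlapped, and its log2 fold change was 0.12 (SE 0.07). A 2nd such locus, Os02g07490, was at 41.0 to 48.7 CPM with a log2 fold change of 0.07 (SE 0.07). The phosphoglycerate mutase locus Os05g40420 had 159 to 196 CPM and a log2 fold change of -0.09 (SE 0.07). Of the 4 pyruvate kinase loci, which make pyruvate from phosphoenolpyruvate, 3 had log2 fold changes between 0.00 and 0.03 in size (Os12g05110, Os07g08340 and Os01g16960). Os11g10980 had 14.8, 14.5 and 17.2 CPM at 2 h and 18.6, 17.1 and 18.5 CPM at 24 h. Its log2 fold change of 0.28 (SE 0.10, adjusted p = 0.0525 in edgeR) missed the threshold, but it was called without replicate 3 of 2 h (0.0168), with the replicate block (0.0439) and when all 9 mock (0.0347) or all 18 shoot libraries (0.0240) shared one fit.

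Downstream of pyruvate, Os12g42230 of the pyruvate dehydrogenase E1 step, which decarboxylates pyruvate, was slightly higher at 24 h. It had 59.2, 62.6 and 62.5 CPM at 2 h and 68.5, 67.4 and 67.6 CPM at 24 h, and lay lower than either at 6 h, at 47.9, 47.8 and 50.7 CPM. Its log2 fold change was 0.21 (SE 0.07, adjusted p = 0.0347 in edgeR). This call was lost with DESeq2 (adjusted p = 0.0503), without the filter on low counts (0.0577), with the replicate block (0.0546) and without 5 of the 6 libraries in turn (0.0604 to 0.102). The E2 locus Os12g08170 and the E3 locus Os05g06460 of the same complex had log2 fold changes of 0.09 and 0.15, with SE of 0.08 each, and did not pass the test. Nor did citrate synthase, Os02g10070 (0.12, SE 0.07), or the malate dehydrogenase loci Os01g46070 (0.06, SE 0.07) and Os10g33800 (-0.12, SE 0.07), enzymes of the citrate cycle. The 2-oxo acid decarboxylase locus Os01g06660, a step of the route from pyruvate to ethanol, had a log2 fold change of 0.03 (SE 0.13) at 7.34 to 9.74 CPM.

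The one lower locus of the list, Os03g44420, has no reaction given. It had 59.8, 62.3 and 57.6 CPM at 2 h and 47.4, 42.9 and 51.5 CPM at 24 h, with -0.28 as its log2 fold change (SE 0.07, adjusted p = 0.0165 in edgeR). Its call was lost without replicate 2 of 2 h (adjusted p = 0.0514) and without replicate 1 or 2 of 24 h (0.0710 and 0.0743). The remaining loci of the list carry reactions outside sugar catabolism. Os07g46920, given a reaction of lignan synthesis, had a log2 fold change of 0.17 (SE 0.24), with 19.8, 24.4 and 9.58 CPM at 2 h, where replicate 3 was low, and 17.3 to 20.2 CPM at 24 h. Os04g10000, given reactions of diterpenoid phytoalexins, had at most 0.438 CPM in these 6 libraries and was not tested.

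Pyruvate phosphate dikinase, Os05g33570, which makes phosphoenolpyruvate from pyruvate, was low at 6 h and high at both other times. It had 709, 602 and 751 CPM at 2 h, 351, 339 and 315 CPM at 6 h and 779, 698 and 803 CPM at 24 h. The 6 h libraries lay below all others, while those of 2 h and 24 h overlapped, with a log2 fold change of 0.21 (SE 0.10, adjusted p = 0.131 in edgeR, and 0.0452 without replicate 3 of 2 h). The zaxinone shoots showed the same order, with means of 694, 416 and 798 CPM at 2, 6 and 24 h.

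**Figure D1:**
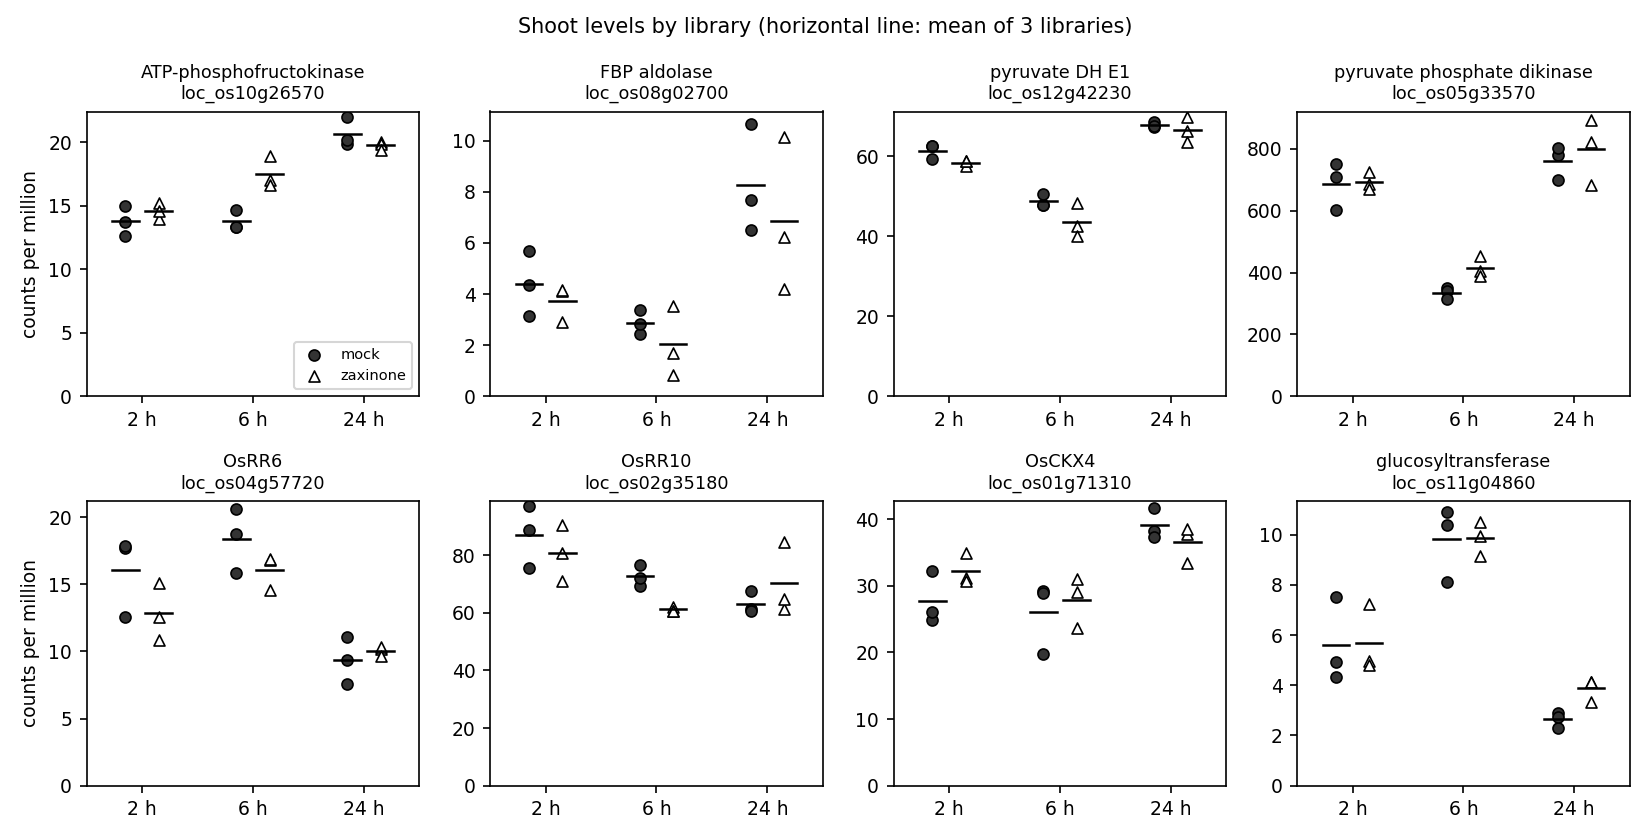
Levels of 8 loci in each of the 18 shoot libraries in CPM (vertical axes from 0), by hours after application (horizontal axes). Filled circles are mock and open triangles are zaxinone libraries, and lines are means of 3. In mock shoots the ATP-phosphofructokinase locus sits at 12.6 to 15.0 CPM at 2 h and 19.9 to 22.0 CPM at 24 h, OsRR6 and OsRR10 are lower at 24 h, and pyruvate phosphate dikinase is low only at 6 h.

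Among the cytokinin loci, a pair of response regulators was lower at 24 h and a cytokinin oxidase was higher. Of the 7 that the study names for synthesis, degradation and signalling, 6 were tested, and 1 was higher at 24 h and 2 were lower, with a median log2 fold change of -0.06. That is 50.0% of a short list, against 27.8% of all transcripts. Among the signalling loci, OsRR6 (Os04g57720), a response regulator whose RNA is known to rise after cytokinin treatment, had 17.7, 12.6 and 17.9 CPM at 2 h and 9.38, 11.1 and 7.60 CPM at 24 h. All 24 h libraries lay below those of 2 h. Its log2 fold change was -0.71 (SE 0.17, adjusted p = 0.0107 in edgeR). OsRR10 (Os02g35180), another response regulator, fell from 88.7, 75.6 and 97.0 CPM to 67.4, 61.2 and 60.6 CPM, a log2 fold change of -0.40 (SE 0.10, adjusted p = 0.0100 in edgeR). At 6 h OsRR6 stood at 15.9 to 20.6 CPM, near its 2 h level, and OsRR10 at 69.2 to 76.6 CPM, with its mean between those of the other times. The B-type regulator Os06g08440, of the class that binds DNA at the end of the phosphorelay, had 15.8 to 16.8 CPM at 2 h and 16.8 to 18 CPM at 24 h, a log2 fold change of 0.15 (SE 0.08, adjusted p = 0.223 in edgeR).

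OsCKX4 (Os01g71310), a cytokinin oxidase/dehydrogenase that breaks cytokinins down, moved in the other direction. It had 24.9, 26.1 and 32.3 CPM at 2 h and 38.3, 41.7 and 37.3 CPM at 24 h. The times did not overlap, and the log2 fold change was 0.56 (SE 0.11, adjusted p = 0.00349 in edgeR), a 1.48-fold difference. The loci of cytokinin synthesis did not pass the test. Os10g33900 had 10.9 to 13.0 CPM at 2 h and 13.6 to 14.8 CPM at 24 h (log2 fold change 0.27, SE 0.10, adjusted p = 0.0632 in edgeR, and 0.0388 with all 9 mock libraries in one fit), Os03g49050 had a log2 fold change of -0.28 (SE 0.20), and Os05g51390, with at most 0.303 CPM, was not tested. The calls of OsRR6, OsRR10 and OsCKX4 held in each of the 14 alternatives run.

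The glucosyltransferase loci, which the study lists as likely to attach glucose to cytokinins in roots, showed no common direction in shoots. Of 13 listed, 10 were tested, and 1 was higher and 1 was lower at 24 h, 20.0% against 27.8% of all transcripts, with a median log2 fold change of -0.04. Os11g04860, listed with a cyanidin glycoside as substrate, had 4.34, 4.94 and 7.52 CPM at 2 h, 10.9, 10.4 and 8.14 CPM at 6 h and 2.89, 2.31 and 2.75 CPM at 24 h. Its 24 h libraries were the lowest and its 6 h libraries the highest, with a log2 fold change from 2 h to 24 h of -1.02 (SE 0.22, adjusted p = 0.00632 in edgeR). Os05g12450, listed with hydroquinone as substrate, had 10.4, 8.62 and 12.5 CPM at 2 h and 13.5, 15.4 and 17.4 CPM at 24 h, a log2 fold change of 0.62 (SE 0.15, adjusted p = 0.00974 in edgeR). Os02g42280, the one locus of the list with zeatin, a cytokinin, as substrate, had at most 0.372 CPM in these 6 libraries and was not tested.

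A pair of the glucosyltransferase loci dipped at 6 h, as pyruvate phosphate dikinase did. Os01g08440, listed with crocetin as substrate, had 108, 80.7 and 110 CPM at 2 h, 35.9, 28.2 and 30.3 CPM at 6 h and 84.5, 91.3 and 89.2 CPM at 24 h. Os02g11640 had 54.0, 38.1 and 40.1 CPM at 2 h, 7.56, 9.70 and 9.32 CPM at 6 h and 50.8, 57.4 and 45.8 CPM at 24 h. For both, the 2 h and 24 h libraries overlapped and the 6 h libraries lay far below, and neither passed the test between 24 h and 2 h. Their log2 fold changes were -0.11 (SE 0.11) and 0.29 (SE 0.13). Os01g08440 was called without replicate 2 of 2 h (-0.25, adjusted p = 0.0443 in edgeR) and Os02g11640 without replicate 1 of 2 h (0.46, 0.0127).

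**Figure D2:**
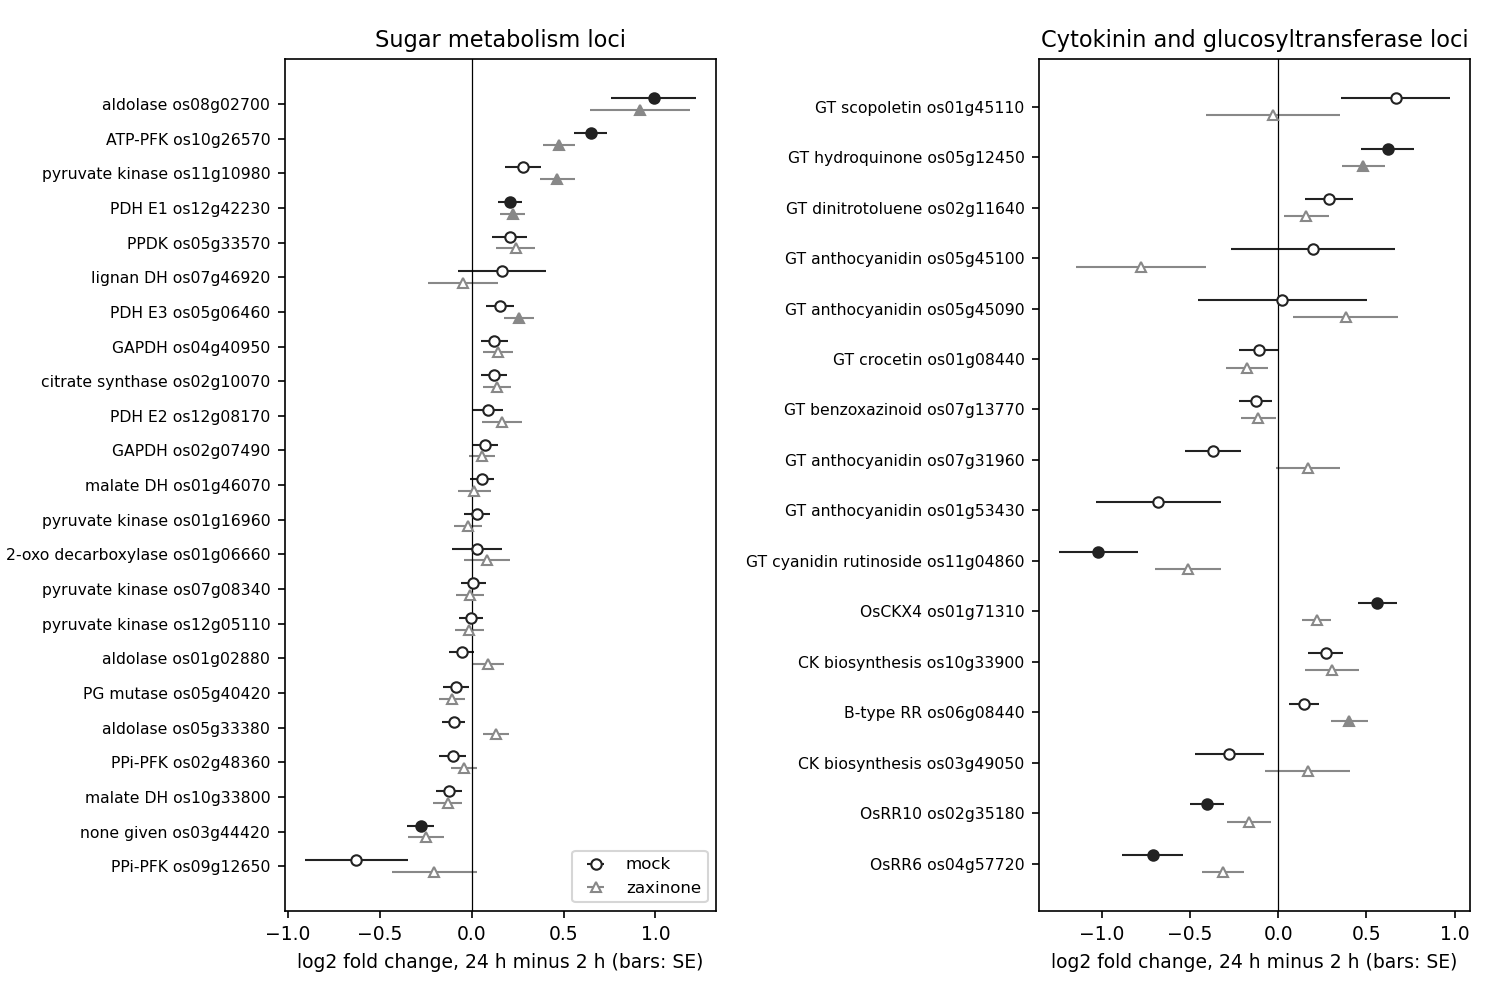
Log2 fold change of 24 h over 2 h (horizontal axis) for the 23 sugar metabolism loci tested (left) and for the 6 cytokinin and 10 glucosyltransferase loci tested (right), in mock shoots (dark circles) and zaxinone shoots (grey triangles). Bars are standard errors and filled symbols have an adjusted p under 0.05. Most sugar metabolism loci sit near 0, with aldolase Os08g02700 and ATP-phosphofructokinase Os10g26570 to the right in both treatments.

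The smallest p-values belonged to transcripts without a name. In each direction the 2 with the smallest p-value are given. loc_os10g18340.1 had 88.8, 89.0 and 87.1 CPM at 2 h and 16.6, 17.1 and 15.1 CPM at 24 h, a log2 fold change of -2.37 (SE 0.08, adjusted p = 7.72e-08 in edgeR). At 6 h it had risen to 366, 409 and 381 CPM, so that its means ran from low at 24 h over 2 h to high at 6 h. loc_os05g35470.1 fell from 71.4, 69.9 and 80.0 CPM to 2.32, 3.34 and 3.76 CPM, a log2 fold change of -4.48 (SE 0.14, adjusted p = 7.72e-08 in edgeR), and stood at 127 to 132 CPM at 6 h. In the opposite direction, loc_os04g59440.1 rose from 118, 117 and 117 CPM to 426, 478 and 433 CPM, a log2 fold change of 2.00 (SE 0.08, adjusted p = 2.78e-07 in edgeR), and had 35.4 to 49.1 CPM at 6 h. loc_os01g09300.1 rose from 44.4, 50.5 and 46.2 CPM to 144, 144 and 135 CPM, a log2 fold change of 1.65 (SE 0.07, adjusted p = 5.91e-07 in edgeR), and had 19 to 23.8 CPM at 6 h. In all of them the 2 h level lay between those of 6 h and 24 h.

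That order was the most common one among all calls. Of the 3374 transcripts called higher at 24 h, 1848 (54.8%) had their lowest mean at 6 h in the mock libraries, with 2 h in between, and 1178 (34.9%) rose from 2 h over 6 h to 24 h. Of the 3066 called lower, 1693 (55.2%) were highest at 6 h, and 1248 (40.7%) fell through all times. The calls fix the order of 2 h and 24 h, so these shares are read against all tested transcripts with the same order of these times in means of CPM. Of the 9210 with 24 h above 2 h, 43.1% were lowest at 6 h, fewer than among the transcripts called higher. Of the 13944 with 24 h below 2 h, 58.1% were highest at 6 h, slightly more than among those called lower. In the zaxinone libraries, which the calls did not use, 1533 of the transcripts called higher had the order of 6 h, 2 h and 24 h from low to high, 46.2% of the 3318 of them with 24 h above 2 h, against 37.5% over all tested. The reverse order was found for 1511 of those called lower, 49.9% of the 3029 with 24 h below 2 h, against 57.5% over all tested. These shares are a description, with no test. The counts were 1502 and 1444 without the zaxinone library of 6 h with the fewest counts (13229890), which was left out after its total had been seen. Some transcripts without a call also stood apart at 6 h. Of the 16714 not called, 1117 (6.68%) had the CPM of all 3 mock libraries of 6 h below all those of 2 h and 24 h, and 3889 (23.3%) had it above. That 2 h and 24 h were equal in these was not tested. In 659 and 2712 of these the zaxinone libraries were arranged the same way. All these orders rest on CPM without the scaling factors of the test, and how far the counts and shares depend on this was not tested.

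A principal component analysis of the 18 shoot libraries over the 500 most variable transcripts gave the same arrangement. The first component, with 78.5% of the variance, placed the mock libraries of 24 h between -35.94 and -30.75, those of 2 h between -7.57 and -4.31, and those of 6 h between 35.06 and 36.16. The 2nd component, with 6.08%, set the 2 h libraries, at -12.44 to -9.12 in mock, apart from those of 24 h, at 7.07 to 7.81. The zaxinone libraries lay beside the mock libraries of their time on both components.

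**Figure D3:**
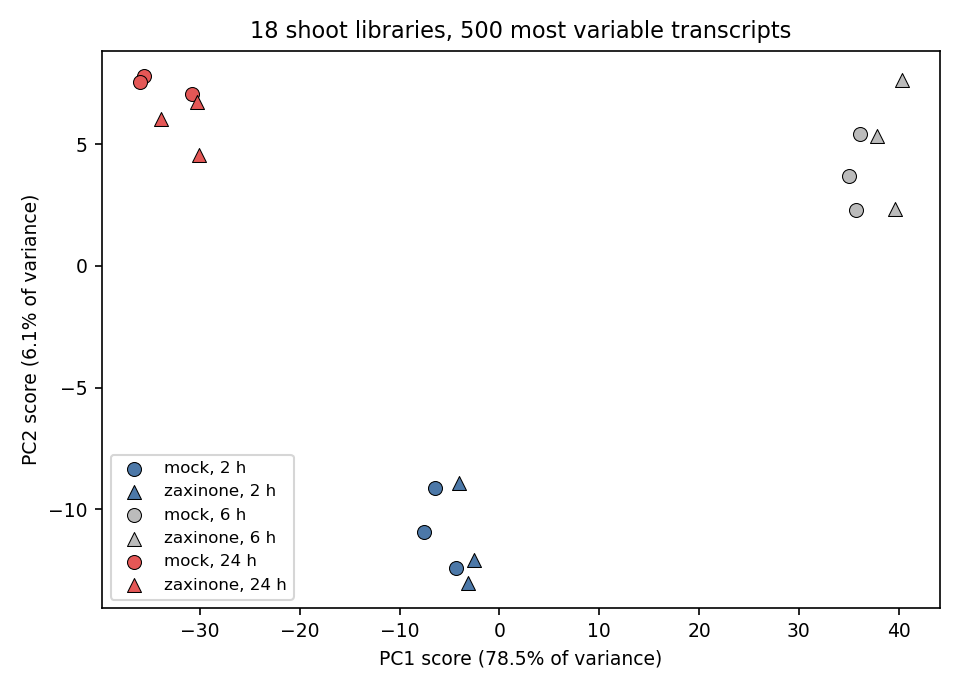
Scores of the 18 shoot libraries on the first (horizontal) and second (vertical) principal component of log2 CPM, without units. Circles are mock and triangles are zaxinone libraries, coloured by hours after application. Along the first component the 24 h libraries lie at the low end, those of 2 h in the middle and those of 6 h at the high end, for both treatments.

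The same contrast of times was measured in zaxinone shoots, in libraries that the mock comparison did not use. There, 5617 of 23170 transcripts (24.2%) passed the test, 2874 higher (12.4%) and 2743 lower (11.8%) at 24 h. Of the transcripts called in mock shoots, 6411 were tested in zaxinone shoots, and 6328 (98.7%) differed in the same direction. That share among all transcripts tested in both is not given here. Harvest time and library preparation cannot be told apart in the zaxinone libraries either. Calls in both treatments numbered 4172, which is 64.8% of the mock calls and 74.3% of the zaxinone calls, and all 4172 had the same direction. Across the 22885 transcripts tested in both, Pearson's r of the log2 fold changes was 0.82, as a description over transcripts that are not independent. The calls in mock had a median log2 fold change of 0.47 and -0.62 there and of 0.38 and -0.52 in zaxinone shoots. The number called in zaxinone shoots was 3433 without replicate 1 of 2 h and 3693 without replicate 3 of 2 h.

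The share of all counts held by these transcripts moved in the same direction in zaxinone and in mock shoots. Those called higher in mock took between 24.7% and 25.5% of the counts in mock libraries at 2 h and between 33.8% and 34.7% at 24 h. In zaxinone libraries they took 24.8% to 25.5% at 2 h and 32.6% to 33.7% at 24 h. Those called lower took 21.2% to 22.3% at 2 h and 13.7% to 14.2% at 24 h in mock, and 21.3% to 22.7% and 14.5% to 14.9% in zaxinone libraries. At 6 h, their shares in mock libraries were 20.3% to 20.4% and 24.3% to 24.9%, beyond the 2 h values on the far side from 24 h.

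**Figure D4:**
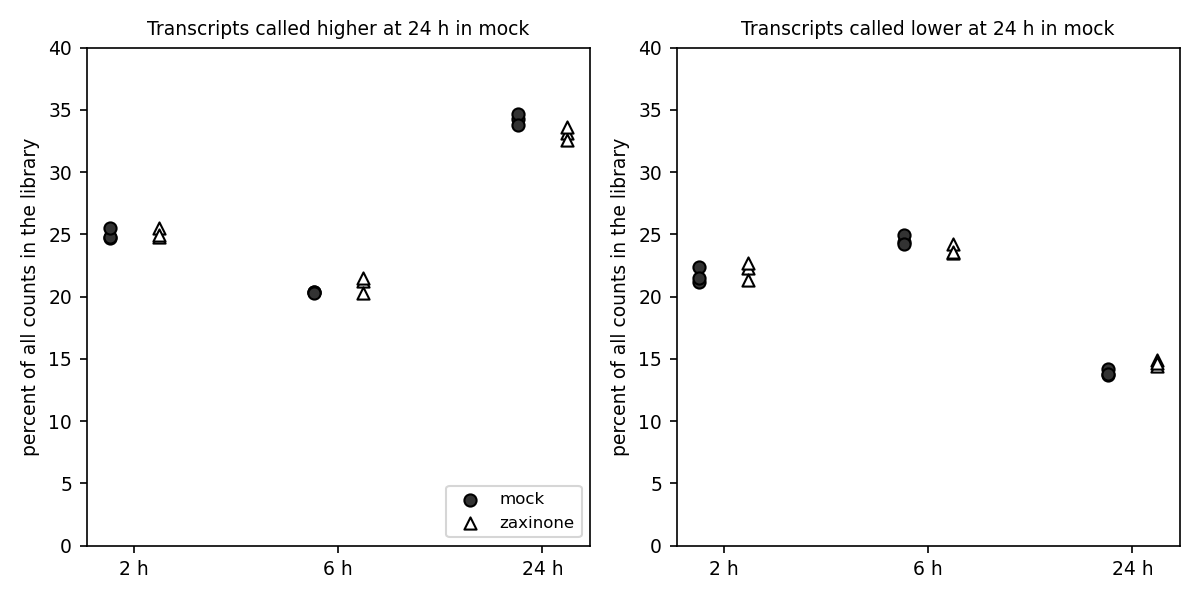
Share of all counts in each shoot library (percent, vertical axes from 0) taken by the transcripts called higher (left) and lower (right) at 24 h in mock shoots, by hours after application. Circles are mock and triangles are zaxinone libraries, and the zaxinone libraries were not used for the calls. The higher set takes 24.7% to 25.5% of mock counts at 2 h and 33.8% to 34.7% at 24 h.

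No difference between the treatments in the change over time was detected. The interaction of time with treatment, tested in one edgeR fit of the 12 shoot libraries, gave 0 calls (0%) among 23766 transcripts, with 928 at an unadjusted p under 0.05, and DESeq2 gave 0 as well. For the loci above, the zaxinone values stood beside those of mock as follows. Os10g26570 had a log2 fold change of 0.48 (adjusted p = 0.00295 in edgeR), Os08g02700 of 0.91 (adjusted p = 0.0310), Os12g42230 of 0.22 (adjusted p = 0.0355) and Os05g12450 of 0.48 (adjusted p = 0.0149), all called higher as in mock. The remaining calls of mock shoots kept their direction without passing the test in zaxinone shoots. OsRR6 had -0.31 (adjusted p = 0.0818 in edgeR), OsRR10 -0.16 (0.367), OsCKX4 0.22 (0.0756), Os11g04860 -0.51 (0.0696) and Os03g44420 -0.25 (0.0866). Of the loci not called in mock, the pyruvate kinase locus Os11g10980 (0.47, adjusted p = 0.00485), the E3 locus Os05g06460 (0.26, 0.0362) and the B-type regulator Os06g08440 (0.40, 0.0169) were called higher in zaxinone shoots. Since none of these loci passed the interaction test (adjusted p of at least 0.995), a difference between treatments was not shown for any of them.

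Fewer transcripts passed the test in mock roots. There, 3145 of 23595 (13.3%) differed between 24 h and 2 h, 1219 higher (5.17%) and 1926 lower (8.16%), with a larger spread between libraries than in shoots (biological coefficient of variation 0.21 against 0.10). Of the 5969 shoot calls tested in roots, 618 were called there in the same direction, 373 in the opposite one and 4978 were not called. Among the 618, 318 were higher and 300 lower at 24 h. Among the 373, 291 were higher in shoots and lower in roots, and 82 the reverse. The interaction of time with tissue, tested in one edgeR fit of the 12 mock libraries of 2 h and 24 h, was called for 3518 of 25666 transcripts (13.7%), with 2166 more positive in shoots (8.44%) and 1352 more negative (5.27%), and for 1893 of the 6440 shoot calls (29.4%), all 373 opposite ones among them. The shoot calls were chosen on the shoot libraries that this test also uses. The number called was 2259 without mock shoot replicate 1 of 2 h, 2265 without mock shoot replicate 1 of 24 h and 6285 without mock root replicate 2 of 2 h.

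The phosphofructokinase and aldolase loci that rose in shoots fell in roots. Os10g26570, higher at 24 h in shoots, fell in roots from 84.2, 63.7 and 87.6 CPM to 47.6, 38.7 and 33.7 CPM (log2 fold change -1.02, adjusted p = 0.00387 in edgeR). The difference between shoots and roots was 1.66 on the log2 scale (adjusted p = 0.000178 for the interaction in edgeR). The aldolase locus Os08g02700 fell in roots from 4.77, 15.3 and 23.2 CPM to 2.82, 3.29 and 5.98 CPM, where replicate 1 of 2 h overlapped the 24 h libraries, and its difference between tissues was 2.86 (adjusted p = 0.0111 for the interaction in edgeR). Both kept their calls in each of the 15 alternatives run. In all, 5 of the 24 loci passed this test, against 13.7% of all transcripts. Of the 3518 calls over all transcripts, 2166 were more positive in shoots, and so were all 5 of these loci. The other three were Os07g46920 with a difference of 2.36, the glyceraldehyde-3-phosphate dehydrogenase locus Os02g07490 with 0.67 and citrate synthase Os02g10070 with 0.46. The call was kept in each alternative for Os07g46920, but lost in 5 of 15 for Os02g07490 and in 6 of 15 for Os02g10070. These had log2 fold changes of -2.21, -0.60 and -0.34 in roots. The study describes this set as selected from differences between zaxinone and mock at 6 h, a time that this contrast of roots does not use.

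The response regulators differed between tissues as well. OsRR6 had 1.68, 2.38 and 2.57 CPM in roots at 2 h and 3.60, 3.82 and 4.01 CPM at 24 h, a log2 fold change of 0.74 that did not pass the test (adjusted p = 0.104 in edgeR), but its difference from shoots of -1.46 did (adjusted p = 0.00619 for the interaction). OsRR10 had a log2 fold change of 0.46 in roots, and a difference of -0.87 (adjusted p = 0.0297 for the interaction in edgeR) that was lost in 7 of the 15 alternatives. OsCKX4 had 0.82 in roots against 0.56 in shoots, and its interaction did not pass the test (adjusted p = 0.585 in edgeR). Among the glucosyltransferases, 3 of the 11 loci tested passed the interaction test, against 13.7% of all transcripts. Os01g53430 and Os07g31960 changed more negatively in shoots, with differences of -3.17 and -1.59 that were lost in 10 and 6 alternatives. Os01g45110, listed with scopoletin among its substrates, fell in roots from 5.25 to 8.57 CPM at 2 h to 0.246 to 1.16 CPM at 24 h (log2 fold change -3.53). It stood at 1.01 to 2.81 CPM and 2.45 to 3.51 CPM in shoots, a difference of 4.19 (adjusted p = 0.000723 for the interaction in edgeR). The study names OsRR6 and OsRR10 for a rise with zaxinone over mock at 2 h, and OsCKX4 for one at 2 and 24 h. It selected the glucosyltransferases from differences at 24 h. Mock root libraries of these times were part of that choice, so the root side of these differences is not independent of it.

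**Figure D5:**
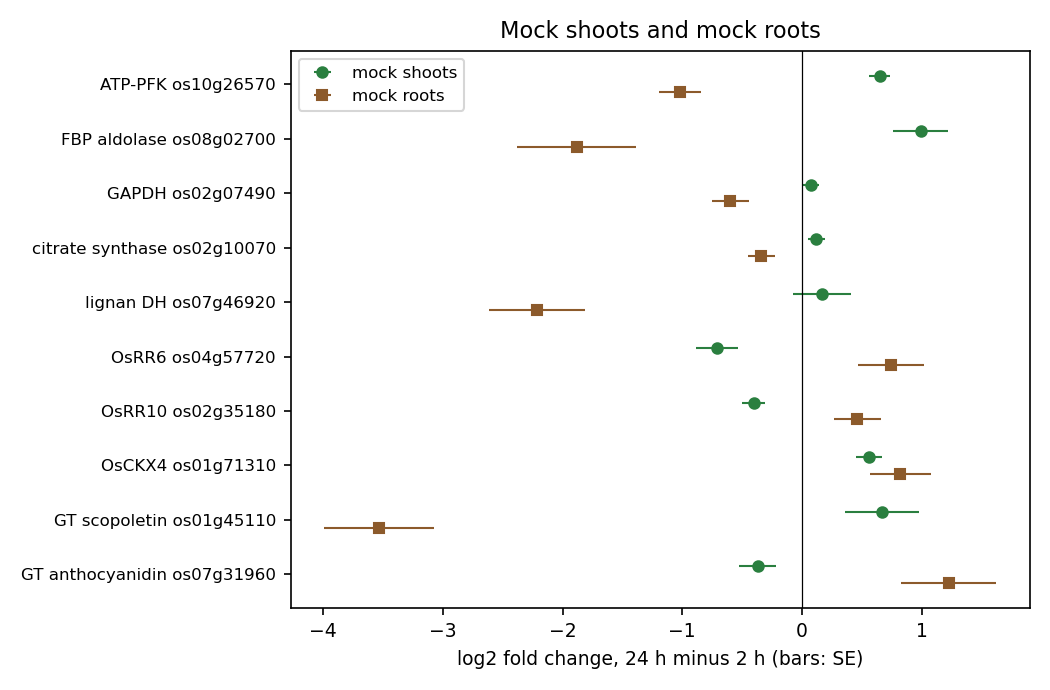
Log2 fold change of 24 h over 2 h (horizontal axis) in mock shoots (green circles) and mock roots (brown squares) for 10 loci with an enzyme or role given by the study. Bars are standard errors. ATP-phosphofructokinase Os10g26570 and aldolase Os08g02700 lie to the right of 0 in shoots and to the left in roots, OsRR6 and OsRR10 the other way round, and OsCKX4 lies to the right in both.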

How the data were processed

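RNA of the shoots was sequenced as paired-end reads on an Illumina instrument. Per the labels and the study's methods, the authors trimmed reads with Trimmomatic, aligned them with HISAT2 to the O. sativa v7.0 genome and counted them with HTSeq. Versions and strand setting are not given in the sources used here, so reads of overlapping and antisense loci cannot be told apart. The extraction is described for root RNA only. The authors deposited raw read counts per transcript, without normalization, in 6 tables of a tissue and time each, listing transcripts with at least 2 counts. The tables also hold their DESeq2 comparison of zaxinone with mock, which was not used, and exist as 6 copies with the same values.

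The shoot tables of 2 h and 24 h were joined by identifier, with 0 for a missing row (1087 listed only at 2 h and 778 only at 24 h). Counts were filtered with filterByExpr, scaled by TMM and tested in R 4.3.3 with edgeR 4.0.16 (glmQLFit and glmQLFTest, two-sided, Benjamini-Hochberg over all transcripts tested). Positive log2 fold changes mean higher at 24 h. CPM is counts per 1000000 counts of the library, without TMM. Log2 CPM for correlations and PCA used a prior count of 2. Alternatives were DESeq2 1.42.0, its size factors in edgeR, no filter, at least 10 counts in each library, only transcripts listed in both tables, a replicate block, all mock or all shoot libraries in one fit, and each library left out. The scripts were tested on simulated data.

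The rule for named transcripts took the largest changes with a known product, the 5 smallest p-values in each direction and the members of gene lists held by name. Only 1 of 33024 identifiers matched the RefSeq gene table, so those lists, tissue marker genes and promoter motifs were not analysed here. In their place the loci for which the study gives an enzyme or role are described, and 2 identifiers in each direction are printed. The lists and the comparison were chosen with earlier results of these data known.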

Additional observations from a re-analysis of the deposited data

Results flagged for a closer look

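In mock plants, the change from 2 h to 24 h differed between shoots and roots for 13 of the transcripts named here, by edgeR's test of the interaction with an adjusted p under 0.05. Among the loci tested these were 5 of 24 for sugar metabolism, 3 of 11 glucosyltransferases and 2 of 7 cytokinin loci. The rest were transcripts without a name. Of all transcripts tested, 13.7% were called. The differences, shoots minus roots on the log2 scale, were 0.67 for Os02g07490, 2.86 for Os08g02700, 1.66 for Os10g26570, 0.46 for Os02g10070 and 2.36 for Os07g46920 among the sugar metabolism loci. They were 4.19 for Os01g45110, -3.17 for Os01g53430 and -1.59 for Os07g31960 among the glucosyltransferases, and -1.46 for OsRR6 and -0.87 for OsRR10. Among the transcripts without a name they were 1.46 for loc_os01g09300.1, -2.81 for loc_os05g35470.1 and -1.01 for loc_os10g18340.1. Os01g53430 had at most 0.941 CPM in any of these libraries. For OsRR6, OsRR10 and the glucosyltransferases, mock root libraries of 2 h or 24 h were part of the study's choice of loci. The transcripts without a name were chosen by their p-values in mock shoots, in libraries that this test also uses. The difference kept its call in each of the 15 alternatives for Os08g02700, Os10g26570, Os07g46920, OsRR6 and loc_os01g09300.1, and in each of the 14 that could be fitted for Os01g45110. It lost it in 10 alternatives for Os01g53430, in 9 for loc_os10g18340.1, in 7 for OsRR10, in 6 each for Os07g31960 and Os02g10070, in 5 for Os02g07490 and in 2 for loc_os05g35470.1. The groups of 3 libraries are too small for a test of single libraries that stand apart.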

How the results depend on the processing

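The numbers of transcripts called higher and lower in mock shoots stayed within 1.5 times of 3374 and 3066 except that 1999 were lower without replicate 1 of 24 h, and that 386 higher and 691 lower, 1077 in all, remained where a log2 fold change beyond 1 was required as well. With a library left out the total ranged from 4405 to 5958, with 2406 to 3078 higher and 1999 to 2880 lower, and between 66.7% and 83.6% of the calls were kept. Of the 6440 calls, 0 turned direction in any alternative. DESeq2 called 3247 higher and 2710 lower, and its size factors in edgeR 3471 and 2976. The check used did not settle whether the replicate numbers pair the samples. The deviations of same-numbered libraries from their group means correlated with r of 0.043, 0.046 and 0.187, and 1 of these 3 exceeded 0.1. For libraries of unlike number r ran from -0.148 to 0.108. With the replicate block, 3427 were higher and 3263 lower, 6690 in all. The block changed 3 calls in shoots, Os12g42230 (adjusted p = 0.0546), Os11g10980 (0.0439) and Os01g45110 (0.0389), and 2 interactions with tissue, Os02g10070 (0.0701) and Os01g53430 (0.0788), all in edgeR, and no other call of the loci described. Left-out libraries gave 3433 to 5618 calls in zaxinone shoots and 2259 to 6285 for the interaction of time with tissue, where DESeq2 gave 4819, and 0 for the interaction with treatment. The sign turned only for loci whose change was smaller than its SE and that were not called in either setting. For Os12g05110 the log2 fold change was 0.0062 with DESeq2, 0.0063 with its size factors, 0.0120 with all 9 mock shoot libraries, 0.0128 with all 18 shoot libraries and -0.0277 to 0.0278 without a library. Without a library, it ranged from -0.0192 to 0.0574 for Os07g08340, from -0.0727 to 0.152 for Os01g06660, from -0.130 to 0.441 for Os07g46920, from -0.381 to 0.404 for Os05g45090 and from -0.203 to 0.721 for Os05g45100. The cause of these shifts was not tested.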
